A study of Mus musculus with 6 samples.

Results

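The genes expressed in samples labelled female germline stem cells (FGSC) were described by the brightness of their probes on the arrays that carried these samples. FGSC came from ovaries of CD1 mice aged 3 days, and total RNA of the preparation was hybridised to 3 arrays of the Illumina Mouse WG-6 v2.0 type. The comparison population was spermatogonial stem cells (SSC) from testes of CD1 mice aged 6 days, also on 3 arrays. The study set out to compare the expression profiles of these populations. A gene counted as detected when the detection p-value of 1 of its probes was under 0.01 on all 3 FGSC arrays, and the brightest such probe stood for the gene. By this rule 7547 of 19053 measured genes (39.6%) were detected in FGSC. Genes were ranked by the mean of the background-corrected, quantile-normalized log2 signal over the 3 FGSC arrays. This mean is called the level below and is given with its SD over n = 3 arrays. With the detection rule applied to the 3 SSC arrays, 8689 of the 19053 genes were detected in SSC. Counts of detected list members below are to be read beside these totals of all genes.

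No source used here says how the cells were enriched or cultured, whether animals were pooled, or whether the replicates came from separate animals or isolations. The p-values below therefore reflect how far these particular samples vary, a variation that could be technical. Sex, organ and age differ together between FGSC and SSC and cannot be told apart. In bulk RNA, fewer cells of a type and less RNA per cell cannot be told apart either. FGSC below names the samples by their label. Transcripts of FGSC and of oocytes in the same preparation cannot be told apart in bulk RNA, and the share of oocytes was not tested.

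In the newborn mouse ovary most germ cells are oocytes that have entered the long arrest of meiotic prophase and are being enclosed in primordial follicles. Oocytes store maternal transcripts and proteins for the embryo, among them the subcortical maternal complex beneath the egg membrane and the zona pellucida that surrounds the egg. FGSC are described as ovarian germ cells that still divide by mitosis and can be propagated, and they are usually recognised by general germ cell markers such as Ddx4, Dazl and Ifitm3.

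Probes differ in how well they bind, so a rank is a rank of probe brightness and not of transcript number. Of the 7547 genes, 2333 had at least 2 detected probes, and the brightest exceeded the next by a median of 0.88 log2 units. The gap was at least 1 unit in 45.8% of these genes and at least 2 in 22.1%. Lack of detection was likewise not read as absence of a transcript. In 7 lists of machinery that nearly all cells use, 264 of 318 measured genes (83.0%) were detected in FGSC, and 49 of the other 54 were not detected in SSC either. Among these were Hspa5, the main chaperone of the endoplasmic reticulum, at 4.8 in both populations, and Canx, another chaperone of that compartment, at 4.7 in both.

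The level of detected genes ran from 5.05 to 13.62 with a median of 7.13, and the median of all measured genes was 4.87, which is background. Levels of at least 8 were reached by 2422 genes, levels of at least 10 by 623 (8.25% of those detected), at least 12 by 72 and at least 13 by 16. The 40 brightest genes held 10.9% of the summed linear signal of detected genes, the 200 brightest 29.3% and the 500 brightest 45.5%. At the detection threshold stood Zfp84 (level 5.51) and Zfp870 (5.16), whose weakest detection p-value was 0.00962, just inside. The genes 2510002D24Rik (5.18) and 4632427E13Rik (5.34) lay just outside at 0.0107. Because the detection p-value moves in steps, 120 genes shared the last step inside and 101 the first step outside. Protein-coding genes were detected in 40.5% of cases and long non-coding RNAs in 44 of 453 (9.71%). Of genes on autosomes 40.1% were detected, of X-linked genes 219 of 710 (30.8%) and of Y-linked genes 0 of 19. Xist, the RNA that silences an X chromosome, had a level of 5.17 and missed the rule because it was detected on 2 of the 3 arrays.

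**Figure D1:**
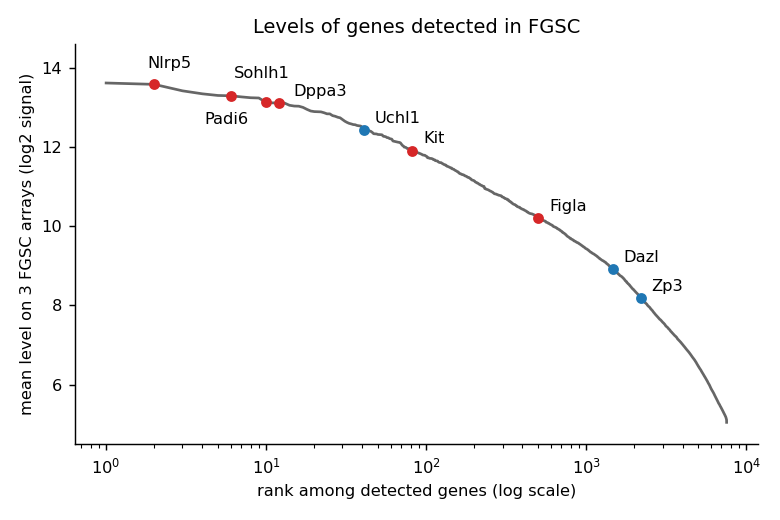
Level of each of the 7547 detected genes (y axis, mean log2 signal on 3 FGSC arrays) against its rank (x axis, log scale). The 6 marker genes given for FGSC are red and Uchl1, Dazl and Zp3 are blue; 4 of the markers, Nlrp5, Sohlh1, Padi6 and Dppa3, lie within the first 12 ranks, while Kit lies at rank 82 and Figla at rank 502.

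The 3 arrays did not agree equally well. Raw 95th percentiles were 577, 551 and 403 on replicates 1, 2 and 3, and 14311, 14006 and 12832 probes had a detection p-value under 0.01. Across genes the correlation was 0.994 between replicates 1 and 2, and 0.956 and 0.964 between each of them and replicate 3. The median SD of a detected gene was 0.18 over 3 arrays. Replicate 3 lay at least 1 unit below the mean of the other two in 294 genes and at least 1 unit above it in 82. The 12 genes with the widest range were Strap, Lsm14b, Tulp4, Polr2j, Prdx1, Stat3, Psma4, Tmed9, Maged1, Unc13c, Rpl12 and Coro1c, and all 12 were low on replicate 3 alone. Prdx1, a peroxide-removing enzyme, stood at 11.50, 11.28 and 7.17 on replicates 1 to 3. Stat3, a transcription factor of cytokine signalling, stood at 9.83 on replicate 2 and 5.76 on replicate 3. In 102 of the 294 genes a further probe was detected. There the brightest probe had a median deviation of -1.89 and the next probe of 0.07, and in 7 genes the next probe was also at least 1 unit lower. Without replicate 3, 8036 genes were detected.

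**Figure D2:**
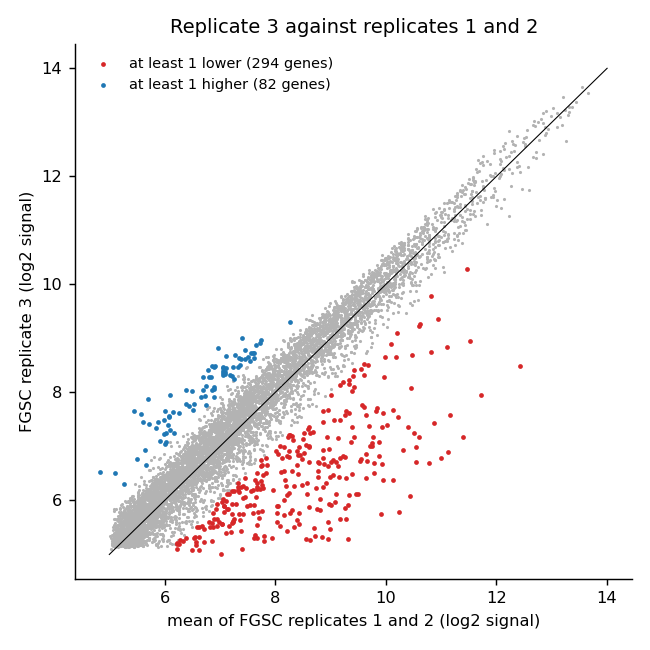
Level on FGSC replicate 3 (y axis, log2 signal) against the mean of replicates 1 and 2 (x axis, log2 signal) for the 7547 detected genes, with the line of equality. Red points are the 294 genes at least 1 unit lower on replicate 3 and blue points the 82 at least 1 unit higher.

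The brightest probes in FGSC belonged to protein synthesis and to the oocyte. Rplp1, a protein of the ribosomal stalk, ranked first at 13.62 ± 0.06, and Nlrp5 followed at 13.58 ± 0.06. Eef1a1, the factor that brings charged transfer RNA to the ribosome, stood at 13.42 ± 0.04. Of the 40 brightest genes, 23 were on the 7 lists of general machinery, most of them cytosolic ribosomal proteins such as Rpl35 (13.34 ± 0.05) and Rps12 (13.26 ± 0.07). Ribosomal proteins, the ubiquitin pseudogene Ubb-ps (13.30 ± 0.04) and the histone H2A genes H2ac24 and H2ac20 have near-identical copies, and their probes may read several of them. Of the 40, 34 were also among the 200 brightest of SSC.

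Each of the 6 markers given for FGSC was detected on all 3 arrays. The markers were named with earlier results of these data known, so their levels are given as a description. Nlrp5, also called Mater, is a member of the subcortical maternal complex, and its probe read 13.55, 13.55 and 13.65 on replicates 1 to 3. Padi6, without which oocytes form no cytoplasmic lattices, read 13.23, 13.05 and 13.09 (13.12 ± 0.09). Dppa3, also called Stella, which protects the maternal genome from demethylation, read 13.19, 13.19 and 12.95 (13.11 ± 0.14). These 3 probes were far above background on every FGSC array, with little spread, and stood at 4.76 ± 0.09, 4.76 ± 0.05 and 4.92 ± 0.12 in SSC.

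Sohlh1, a basic helix-loop-helix factor of early oocytes and of spermatogonia, read 13.17, 13.24 and 13.46 (13.29 ± 0.15). Figla, the basic helix-loop-helix factor that activates the zona pellucida genes, read 10.29, 10.07 and 10.28 (10.21 ± 0.13). Kit, the receptor through which ovarian somatic cells promote oocyte growth, read 11.64, 11.87 and 12.22 (11.91 ± 0.29). Sohlh1 was also bright in SSC, at 11.23 ± 0.12, and Kit stood at 8.86 in SSC. Figla was at 5.33 there. The ranks depended on the probe, since Nlrp5 moved from rank 2 to 97 and Kit from rank 82 to 538 when all detected probes of a gene were averaged.

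**Figure D3:**
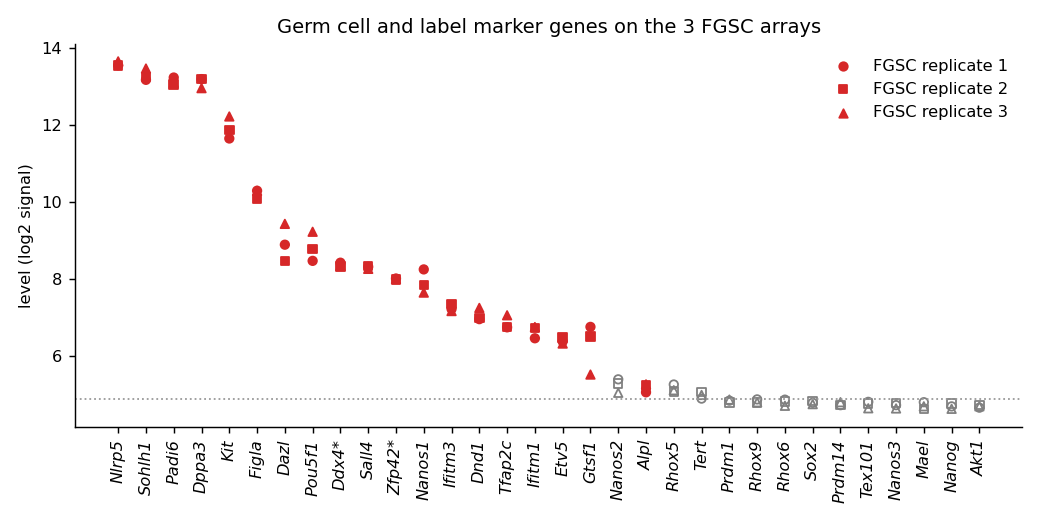
Levels (y axis, log2 signal) of the 6 FGSC markers and of the genes of the lists of germ cell identity and of markers reported for cultured FGSC, with 1 point per array (circle, square and triangle for replicates 1, 2 and 3). Filled red points are detected genes, open grey points genes that missed the rule, the dotted line is the median of all measured genes (4.87), and an asterisk marks a gene whose probe had an irregular signal; Nlrp5 to Figla lie above 10 and most other detected genes between 5 and 9.

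The subcortical maternal complex and related Nlrp genes formed a group of bright and undetected members. Of 14 measured genes 7 were detected, and 3 of them had levels of at least 10. Beside Nlrp5 and Padi6 this was Tle6, a scaffold of the complex, at 12.71, 12.95 and 12.99 (12.89 ± 0.15). Of the other members of the complex, Khdc3 stood at 8.42 ± 0.19 and Ooep read 6.77, 7.47 and 7.49. Nlrp4c (7.80 ± 0.11) and Nlrp14 (7.17 ± 0.36) were also detected, while Nlrp2, Nlrp4a, Nlrp4b, Nlrp4f, Nlrp9a, Nlrp9b and Zbed3 were not. Nlrp5, Padi6 and Khdc3 were detected on no SSC array and entered the comparison with SSC through their FGSC levels, so their calls are not counted. Of the 4 members detected on all 6 arrays, Tle6 and Ooep were higher in FGSC than in SSC and Nlrp4c was lower (limma, adjusted p under 0.05), while Nlrp14 was not called. Of all 10628 genes tested 30.9% were higher and 31.5% lower. That split depended on the scaling. With arrays scaled to a common median, the median difference of all genes moved to -0.12, and 1929 genes were called higher and 3002 lower, so that 39.1% of the calls were higher in place of 49.6%.

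The egg coat was present at intermediate levels. Zp3, a structural protein of the zona, read 8.11, 7.83 and 8.64 (8.19 ± 0.41), and Zp1 read 7.64, 8.30 and 8.24 (8.06 ± 0.36). The oocyte-secreted protein genes Oosp2 and Oosp1 stood at 7.01 ± 0.24 and 5.27 ± 0.18. Zp2, the remaining zona gene on the list, was at 4.9 and not detected. In SSC, Zp1, Oosp2 and Oosp1 were detected on none of the arrays and Zp3 on 1. No gene of this list was detected on all 6 arrays, so no count against SSC is given. The only Zp1 probe had signals out of the order set by the detection p-values on SSC arrays, but not on FGSC arrays.

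Transcription factors of the oocyte were detected in 8 of 16 cases. Trp63, whose TAp63 form guards the genome of resting oocytes, read 10.24, 10.33 and 10.33 (10.30 ± 0.06). Lhx8, a LIM homeobox factor needed for early follicles, read 10.05, 10.16 and 10.67 (10.30 ± 0.33). Nobox, a homeobox factor of the same stage, was dimmer at 6.71 ± 0.06, and Sohlh2, the partner of Sohlh1, stood near background at 5.49 ± 0.31. Foxo3, which holds primordial follicles dormant, stood at 7.08 ± 0.08 and did not differ from SSC beyond the threshold (difference -0.25 ± 0.11, SE, limma adjusted p = 0.0876). Without SSC replicate 3 the difference was -0.35 and passed it (adjusted p = 0.0207), and over the alternatives run the adjusted p ranged from 0.0207 to 0.250. Stat3 is on this list at 8.53, with the low value on replicate 3 given above. Of the factors not detected, Taf4b, Tbpl2, Gtf2a1l and the 4 Obox genes had levels of 4.7 to 5.0.

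Among secreted and junction proteins, Gja4, the connexin that joins the oocyte to granulosa cells, read 11.01, 10.99 and 11.25 (11.08 ± 0.14). The growth factors Gdf9 and Bmp15, by which oocytes act on follicle cells, were dimmer at 8.22 ± 0.30 and 7.74 ± 0.40. Gja1, the connexin of granulosa and Sertoli cells, stood at 7.29 ± 0.06 in FGSC and at 11.56 in SSC (difference -4.27 ± 0.10, limma adjusted p = 6.84e-07). Bmp6, Fgf8 and Cdh2 were not detected. Over the 4 oocyte lists just described, 24 of 43 measured genes (55.8%) were detected in FGSC, beside 39.6% of all genes. In SSC 13 of the 43 were detected, beside 8689 of all 19053 measured genes. The median level of the 43 in FGSC was 6.71. Without replicate 3 the detected counts of the 4 lists were the same, at 7, 4, 8 and 5.

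Promoter sequence was set beside these levels because Sohlh1 and Figla are basic helix-loop-helix factors, a class that binds E-boxes. RefSeq promoter sequences (GRCm38.p6) were matched by gene to 6230 of the 7547 detected genes, and the 250 bases before the start were used. The windows of Sohlh1, Figla, the bright oocyte gene Padi6 and the zona gene Zp3 are shown 5′ to 3′ on the strand of the gene. Capitals mark the E-box CANNTG, a motif that reads the same on both strands, and overlapping matches were counted.
Sohlh1, chr2:25847249-25847498, minus strand: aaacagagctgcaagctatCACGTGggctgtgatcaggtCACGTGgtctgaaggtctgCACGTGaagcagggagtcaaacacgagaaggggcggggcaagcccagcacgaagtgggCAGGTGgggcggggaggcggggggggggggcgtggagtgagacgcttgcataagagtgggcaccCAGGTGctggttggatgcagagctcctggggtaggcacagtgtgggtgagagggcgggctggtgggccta
Figla, chr6:86016941-86017190, plus strand: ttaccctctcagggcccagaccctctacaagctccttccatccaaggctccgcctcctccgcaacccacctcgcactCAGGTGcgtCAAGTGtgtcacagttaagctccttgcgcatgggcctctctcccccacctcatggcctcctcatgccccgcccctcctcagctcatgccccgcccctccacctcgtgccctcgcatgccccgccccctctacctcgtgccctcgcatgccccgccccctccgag
Padi6, chr4:140742644-140742893, minus strand: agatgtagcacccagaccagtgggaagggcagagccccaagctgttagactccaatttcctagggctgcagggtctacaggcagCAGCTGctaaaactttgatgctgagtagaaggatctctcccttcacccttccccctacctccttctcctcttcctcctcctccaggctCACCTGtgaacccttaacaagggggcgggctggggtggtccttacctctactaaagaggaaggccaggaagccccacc
Zp3, chr5:135979855-135980104, plus strand: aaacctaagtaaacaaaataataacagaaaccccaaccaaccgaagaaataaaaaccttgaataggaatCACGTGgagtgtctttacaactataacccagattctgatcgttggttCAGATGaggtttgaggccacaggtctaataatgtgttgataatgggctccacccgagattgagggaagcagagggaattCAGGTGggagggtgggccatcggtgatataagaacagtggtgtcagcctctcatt

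The Sohlh1 window held 5 matches to CANNTG, that of Zp3 3, and those of Figla and Padi6 2 each. Among windows not shown, both entries of the marker Kit held 0 matches. Both entries of Nlrp5 held 2, and those of Tle6 held 2 and 4. Such matches are common, since 66.2% of all 32851 promoter entries held at least 1, as did 57.0% of the entries of detected genes and 18 of the 23 entries (78.3%) of the detected genes of the 4 oocyte lists. A match is only a match of letters. CpG content was also compared, given as the ratio of observed to expected CpG in the window. Its median over promoter entries was 0.75 for detected genes and 0.37 for genes not detected. Among detected genes it was 0.79 in the brightest of 4 equal groups by level and 0.67 in the dimmest. The detected oocyte genes had a median of 0.43, and Padi6, among the brightest genes in FGSC, had a ratio of 0.0506. Detected cytosolic ribosomal protein genes had a median of 0.81.

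Of 15 measured genes of mRNA storage and translational repression in the oocyte, 12 were detected in FGSC and 11 in SSC. Cnot7, a deadenylase, stood at 10.45 ± 0.27, Eif4enif1, which holds transcripts in a silent state, at 9.63 ± 0.35, and Ddx6, a helicase of RNA granules, at 9.03 ± 0.19. Members known mainly from germ cells were detected as well, with the RNA-packaging protein Ybx2 at 7.61 ± 0.38, the polyadenylation factor Cpeb1 at 7.34 ± 0.52 and the cap-binding protein Eif4e1b at 6.52 ± 0.12. Lsm14b, an RNA-binding protein needed for oocyte maturation, read 11.34, 10.90 and 6.89, so its mean of 9.71 rests on the array considered. H1f8, the oocyte linker histone, stood at 9.15 ± 0.10 and Npm2, a histone chaperone of the egg, at 8.06 ± 0.10, and both were detected on no SSC array. They come from a list of chromatin proteins and histone variants, with 13 of 16 measured genes detected in FGSC and 11 in SSC. Of its 13 genes tested, 3 were higher and 8 lower in FGSC, beside 30.9% and 31.5% of all genes.

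Of 17 measured genes of meiotic arrest and maturation 10 were detected in FGSC and 10 in SSC. Fzr1, the activator of the anaphase-promoting complex that keeps cyclin B low in arrested oocytes, was brightest at 12.11, 12.47 and 12.60 (12.40 ± 0.25). Mos, the kinase of the later arrest in metaphase, stood at 6.98 ± 0.17 and Gpr3, the receptor that maintains prophase arrest, at 5.29 ± 0.11. Mos and Gpr3 were at 4.6 and 4.7 in SSC and detected there on no array. Wee2, Gpr12, Pde3a and Fbxo43, further regulators of meiotic arrest, were not detected in FGSC.

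General germ cell genes were detected at intermediate levels. Of 20 measured genes of germ cell identity 11 were detected, with a median level of 6.44 over the 20. After Dppa3 and Kit came Dazl, an RNA-binding protein of germ cells, at 8.88, 8.45 and 9.42 (8.92 ± 0.49). Sall4, a zinc finger factor of germ and stem cells, stood at 8.30 ± 0.04 and Nanos1, a translational repressor, at 7.90 ± 0.31. Dnd1 (7.05 ± 0.16) and Tfap2c (6.84 ± 0.18) followed. Nanos2, Nanos3, Tex101, Mael, Prdm1 and Prdm14 were not detected, and Nanos2, Nanos3 and Tex101 were detected in SSC.

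Of 13 measured markers reported for cultured FGSC, 8 were detected, or 6 without probes whose signal was irregular. A signal was called irregular when it broke the order that the detection p-values of its array set, or when it was deposited with 9 or more digits, as in 20 probes. The Ddx4 probe that passed read 8.42, 8.32 and 8.33, but its signals had such long digits, although they kept the order. Another Ddx4 probe had deposited signals of 343, 287 and 220 with detection p-values that matched signals of 100.5, 96.4 and 96.0, and a further probe was at background. The level of Ddx4, the helicase that marks germ cells, is therefore uncertain here, as is that of Zfp42 (7.99). Pou5f1, a pluripotency factor also expressed in oocytes, stood at 8.82 ± 0.38 by the brighter of its probes and at 7.08 by the other. The brighter probe had an irregular signal on SSC arrays, but not on FGSC arrays. Ifitm3, the membrane protein often used to sort FGSC, stood at 7.24 ± 0.09, Etv5 at 6.38 ± 0.08 and Alpl at 5.17 ± 0.11. Tert, Prdm1, Sox2, Nanog and Akt1 were at 4.7 to 5.0 and were not detected in either population. Of this list, 2 of the 9 genes tested, Dppa3 and Pou5f1, were higher in FGSC than in SSC and 3 were lower, beside 30.9% and 31.5% of all genes. Of its 6 genes detected on all 6 arrays, 1 was higher and 3 were lower.

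Other pluripotency genes were among the bright ones. Dppa5a, an RNA-binding protein of pluripotent and germ cells, read 11.74, 11.72 and 11.92 (11.79 ± 0.11), and Tcl1, a coactivator of Akt, stood at 10.28 ± 0.17. Dppa4 was at 7.93 ± 0.18, and Nanog, Sox2, Utf1 and Tdgf1 were not detected. Over the list, 10 of 22 measured genes were detected (45.5%), beside 39.6% of all genes.

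The piRNA and germ granule list was detected in 14 of 19 cases, or 10 without irregular probes. Piwil2, the Piwi protein of fetal and early germ cells, was brightest at 10.50, 10.60 and 10.41 (10.50 ± 0.09). The Tudor protein Tdrd5 stood at 10.14 ± 0.10, the helicase Mov10l1 at 9.87 ± 0.19 and Tdrd7 at 9.36 ± 0.09. Piwil1, the Piwi protein of later male germ cells, was near background at 5.47 ± 0.19, and Piwil4 and Mael were not detected. Against SSC, 5 of 18 tested genes were higher, among them Tdrd5 by 2.91 ± 0.10 (SE, limma adjusted p = 1.96e-06), and 8 were lower, beside 30.9% and 31.5% of all genes. With median scaling 2 were higher and 6 lower. Without irregular probes 4 of 14 were higher and 5 lower, and the median difference of the list moved from -0.16 to 0.02.

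Of 25 measured genes of the spermatogonial stem cell list 8 were detected (32%), beside 39.6% of all genes, and 11 were detected without replicate 3. In SSC 19 of the 25 were detected, beside 8689 of all 19053 measured genes. Uchl1, a ubiquitin hydrolase of germ and nerve cells, read 12.23, 12.24 and 12.83 (12.43 ± 0.35), at rank 41. Pou3f1 stood at 8.55 ± 0.30 and Id4 at 6.29 ± 0.17, and Zbtb16, also called Plzf, was near background at 5.24 ± 0.06 against 8.23 in SSC. Ret, the signalling receptor for Gdnf, was at 5.0 in FGSC and 9.8 in SSC. Gfra1, its co-receptor, was at 4.7 in both. Bcl6b, Neurog3 and Thy1 had signals of 7.6 to 7.7 with detection p-values above the threshold, another irregularity of the deposited values, and are not counted.

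Both DNA replication and mitosis were represented. Of 25 measured genes of DNA replication 21 were detected in FGSC and 22 in SSC, beside 7547 and 8689 of all 19053 genes. Among them were Mcm5, a subunit of the replicative helicase, at 10.63 ± 0.19 in FGSC, Fen1, which trims Okazaki fragments, at 10.04 ± 0.07, and Mcm4 at 9.83 ± 0.09. Of 21 measured genes of mitosis 13 were detected in FGSC and 13 in SSC. Birc5, a subunit of the chromosomal passenger complex, read 11.58, 11.75 and 12.31 (11.88 ± 0.38), and Prc1, which bundles spindle microtubules, read 11.60, 11.71 and 11.51 (11.61 ± 0.10). Aurka stood at 9.59 ± 0.20, Cdc20 at 9.16 ± 0.07 and Plk1 at 9.14 ± 0.26, whereas Top2a, a topoisomerase of dividing cells, was at 5.98 ± 0.07 against 8.34 in SSC. Cdk1, the mitotic kinase, read 9.45, 9.17 and 5.92. The 8 mitosis genes not detected, among them Ccna2, Ccnb2, Bub1 and Cenpe, were not detected in SSC either. Of the 14 mitosis genes tested, 4 were higher and 5 lower in FGSC, shares near the 30.9% and 31.5% of all genes. Of the 23 DNA replication genes tested, 6 were higher and 8 lower.

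Of 24 measured genes of meiotic prophase 9 were detected (37.5%), near the 39.6% of all genes, and all 9 had levels under 10. Mnd1, which assists strand exchange, was brightest at 8.16 ± 0.19, followed by the mismatch repair homologue Mlh3 at 7.65 ± 0.08. Syce1 (6.30 ± 0.44), Msh4 (6.27 ± 0.32) and Stag3 (6.23 ± 0.45) followed. Sycp1, Sycp3, Dmc1, Hormad1 and Stra8 were at 4.7 to 4.8. None of these 5 was detected in SSC, whereas Rec8 and Sycp2, also undetected in FGSC, were.

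**Figure D4:**
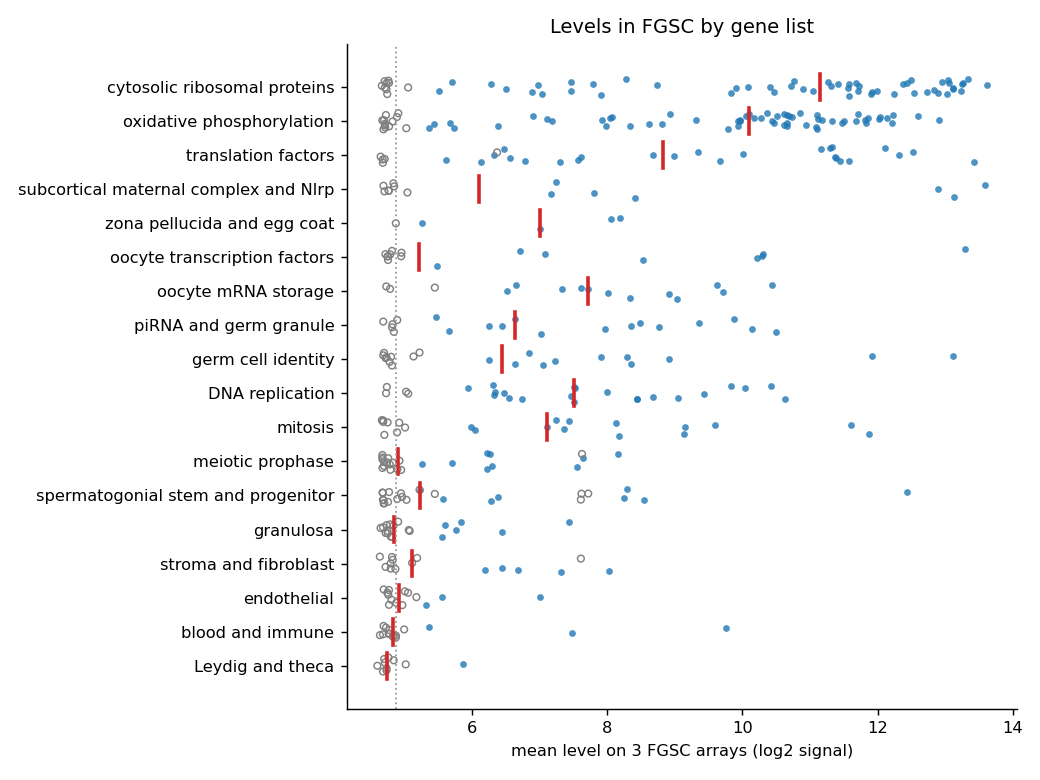
Mean level on the 3 FGSC arrays (x axis, log2 signal) of each measured gene of 18 lists (y axis). Filled blue points are detected genes, open grey points genes that missed the rule, red bars the median of all measured genes of the list, and the dotted line the median of all measured genes (4.87); the bars of ribosomal proteins (11.15) and oxidative phosphorylation (10.09) lie far to the right and those of the somatic lists near the dotted line.

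Over 8 lists of somatic cells of the gonad 29 of 100 measured genes (29%) were detected in FGSC, beside 39.6% of all genes. In SSC 61 of the 100 were detected, beside 8689 of all 19053 measured genes. The median level of the 100 in FGSC was 4.88. Of the 29, 3 reached a level of 8, namely Hba-a1, Cdh1 and Sparc, and none reached 10. Of 19 granulosa cell genes 6 were detected, with Irx3, a homeobox factor, at 7.44 ± 0.05, the inhibin subunit Inha at 5.85 ± 0.32 and Wnt4, a signal of the developing ovary, at 5.77 ± 0.31. The defining granulosa genes Foxl2, Fshr and Amh, and also Kitl, were at 4.7 to 4.8 and not detected. In contrast, the defining genes Sox9 and Cldn11 of Sertoli cells and Acta2 and Myh11 of smooth muscle were detected, at levels given at the end. The median of the granulosa list lay between 4.81 and 4.87 on the FGSC arrays and reached 5.29 on an SSC array.

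Of 10 genes of Leydig and theca cells 1 was detected, the Hedgehog receptor Ptch1 at 5.87 ± 0.15, while the steroidogenic genes Cyp17a1, Cyp11a1 and Star were not. Of 15 stromal genes 5 were detected, with the matrix protein Sparc at 8.04 ± 0.34 and the intermediate filament Vim at 7.31 ± 0.15, while Col1a1, Col1a2, Col3a1 and Pdgfra were not. Of 14 endothelial genes 3 were detected. These were Vwf at 7.01 ± 0.10, Egfl7 at 5.55 ± 0.18 and Plvap at 5.33 ± 0.06. Surface epithelium was represented by 5 of 11 genes (45.5%), among them the adhesion protein Cdh1, which germ cells also express, at 8.25 ± 0.05 on an irregular probe, the mesothelial gene Upk3b at 6.43 ± 0.20 and Krt8 at 5.93 ± 0.21.

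Blood genes gave the highest somatic level. Hba-a1, an alpha globin, read 9.56, 9.73 and 9.96 (9.75 ± 0.20) and Hbb-bt, a beta globin, read 6.75, 7.36 and 8.35. Both were present on every array, and in SSC they stood at 10.93 and 6.89. The leukocyte genes Ptprc, Cd3e, Adgre1 and Csf1r were not detected, and Lyz2, a lysozyme of myeloid cells, was near background at 5.37 ± 0.03. The part of other cells in the levels of the genes above was not tested.

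General machinery made up much of the bright end. Of 62 measured cytosolic ribosomal protein genes 53 were detected, 38 of them at 10 or above, with a median of 11.15 over the 62. Mitochondrial ribosomal proteins had a lower median of 8.47, with 66 of 73 detected. Oxidative phosphorylation had a median of 10.09, and 37 of its 59 detected genes (71 measured) reached 10, led by Atp5b, the catalytic subunit of ATP synthase, at 12.91 ± 0.05. Glycolysis had a median of 6.96 and 1 gene at 10 or above, Gapdh (10.48 ± 0.25). The median was 8.83 for translation factors and 8.34 for proteasome subunits.

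Redox defence was represented by Sod1, which removes superoxide, at 12.56 ± 0.18, the iron-storage subunit Fth1 at 12.31 ± 0.12 and the lipid peroxidase Gpx4 at 11.12 ± 0.20. Among structural genes Tmsb10, an actin-binding peptide, stood at 12.89 ± 0.05 and Actb at 12.79 ± 0.21. Trim28, a corepressor that guards imprints, was at 10.62 ± 0.15 and the maintenance methyltransferase Dnmt1 at 8.46 ± 0.45. Dnmt3a and Dnmt3l were not detected. In the pathway of follicle dormancy and growth 13 of 16 genes were detected, among them Tsc2, a brake on mTOR, at 10.69 ± 0.05 and Pdpk1, the kinase that activates Akt, at 9.80 ± 0.21. Of 18 early response genes 10 were detected and none reached 8, with Junb at 6.26 ± 0.18 against 11.18 in SSC.

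Outside the lists, Puf60, a splicing factor, read 12.85, 12.94 and 13.20 on replicates 1 to 3, G3bp2, a protein of stress granules, stood at 12.86 ± 0.10, and Gdpd1, a lysophospholipase, at 12.84 ± 0.14. The gene of the ubiquitin-associated protein Ubap2 stood at 12.75 ± 0.17. Oas1d, an inactive oligoadenylate synthetase of the oocyte, read 12.23, 12.31 and 12.45 (12.33 ± 0.11). Its relative Oas1c stood at 8.07 ± 0.36, and the other 10 measured genes of that family were not detected. Stk32a, a kinase gene with little known function, read 11.97, 11.90 and 12.01 (11.96 ± 0.05).

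The 200 brightest genes of FGSC were set against SSC by limma. Of them 103 were higher in FGSC, 27 lower and 70 not called. Genes chosen for a high level in FGSC are more often higher there by that choice, so nothing is read from these counts against the 30.9% and 31.5% of all genes. Among the 200, 120 were also among the 200 brightest of SSC, 171 among its 500 brightest, and 5 were not detected on all 3 SSC arrays. These 5 are Nlrp5, Padi6, Dppa3, Oas1d and Stk32a, which also had the greatest differences. Nlrp5, Padi6 and Oas1d were detected on no SSC array, so only a bound can be given, taken against the higher of the SSC signal and the lowest detected signal of each SSC array. By the brightest probe of each gene, Nlrp5 was at least 407-fold higher in FGSC, Padi6 at least 297-fold and Oas1d at least 171-fold. These bounds hold for the main processing only. Its log2 differences of 8.82, 8.37 and 7.57 became 7.01, 6.54 and 5.76 without background correction. In the processed values they were 9.36, 8.87 and 8.06. Further detected probes of Nlrp5 were dimmer in FGSC, at 11.38 and 9.30, so its bound holds for that probe and not for the gene. These genes were chosen for their FGSC level and entered the comparison through it, so no p-value is given for them. Dppa3 and Stk32a were each detected on 2 of the 3 SSC arrays, near background at 4.92 and 4.94. Their log2 differences were 8.19 ± 0.11 (SE) and 7.02 ± 0.08. They were 6.42 and 5.27 without background correction, and 8.40 and 7.16 in the processed values. By the main processing Dppa5a (4.96 ± 0.14), Mtmr14 (4.02 ± 0.14), Gdpd1 (3.98 ± 0.09), Tle6 (3.91 ± 0.11) and Ippk (3.23 ± 0.16) came next. Tubb5, a beta tubulin of dividing cells, fell by 1.93 ± 0.08, from 13.16 in SSC to 11.23 in FGSC, and the histone gene H2ac7 fell by 1.05 ± 0.14.

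**Figure D5:**
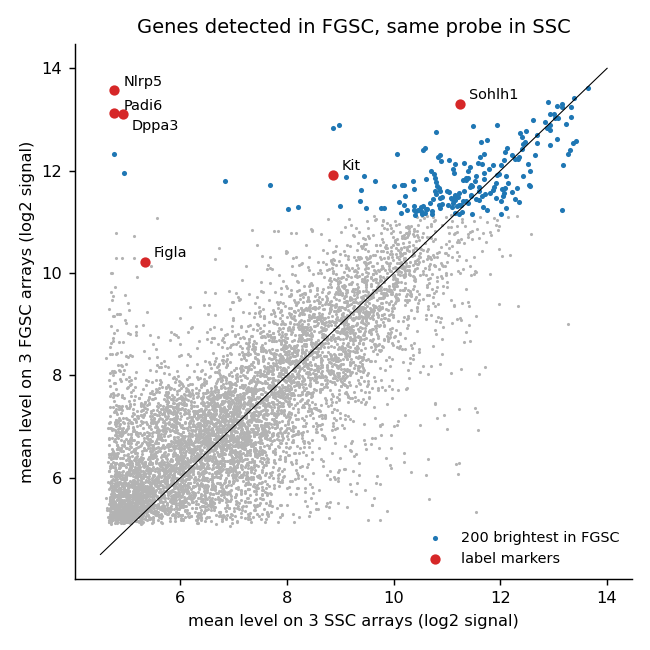
Mean level on the 3 FGSC arrays (y axis, log2 signal) against the mean level of the same probe on the 3 SSC arrays (x axis, log2 signal) for the 7547 genes detected in FGSC, with the line of equality. Blue points are the 200 brightest genes in FGSC and red points the 6 markers; Nlrp5, Padi6 and Dppa3 lie at the far left, near background in SSC.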

How the data were processed

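For 45281 probes and 6 arrays the authors deposited signal intensity, which per the file headers is not normalized, beside detection p-values. A deposited table of processed intensity values served as an alternative. Per the submitters' processing notes lumi was used, and its version and role are not stated there. No source used here names a genome build. The intensity values were background-corrected from the detection p-values, given an offset of 16, quantile-normalized over 6 arrays and put on the log2 scale (neqc, limma 3.58.1, R 4.3.3). Of the probes 34885 had 1 gene symbol, 18 several and 10378 none named here; symbols were updated through RefSeq (GRCm38.p6). FGSC were compared with SSC by lmFit and eBayes with Benjamini-Hochberg adjustment over 10628 genes with a probe detected at 0.05 on 3 or more of the 6 arrays. For these genes the probe brightest over all 6 arrays was used, which can differ from the one that gives the level.

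The members and gene lists were chosen with earlier results of these data known. Named genes were the 40 brightest, the 12 most variable, the genes at the threshold, the largest differences among the 200 brightest, and members of the lists, up to 8 detected of each. Ybx2, Cpeb1, Eif4e1b, Npm2, Gpr3, Top2a and Piwil1 lie outside that rule and were named after their values were seen. The number of arrays limits the precision. No column of other samples was used. Correlations of deviations between arrays of the same replicate number were -0.20, -0.05 and -0.22, and between arrays of different numbers -0.25 to 0.32. With 3 arrays per group these values cannot tell whether the arrays were paired. The main fit used no pairing. The alternatives are other detection rules, probe rules, scalings and background corrections, leaving out each replicate, and the replicate block.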

Additional observations from a re-analysis of the deposited data

How the results depend on the processing

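The number of detected genes stayed within 1.5 times of 7547 under the alternatives run, except that 19053 genes entered with no filter on detection. The median level of detected genes, 7.13, moved by more than the SD of the 3 array medians, which quantile normalization makes very small (0.0019). It was 6.85 with a detection p-value under 0.05, 6.97 with detection on at least 2 of 3 arrays, 4.87 with no filter, 6.91 with the mean of all detected probes and 7.14 without irregular probes. It was 7.07 with the FGSC arrays normalized alone, 7.79 without background correction, 7.45 with an offset of 50, 7.03 with median scaling and 7.18 in the processed values, and it ranged from 7.01 to 7.12 when 1 FGSC replicate was left out. Against 3289 genes higher and 3343 lower in FGSC, median scaling gave 1929 higher and 3002 lower, and detection at 0.01 on all 6 arrays gave 2465 and 1931. Leaving out 1 replicate gave 2866 to 3454 higher and 2898 to 3539 lower genes. With the replicate block the counts were 2946 and 2982. The counts of detected list members without replicate 3 and without irregular probes were chosen after seeing the data. Leaving out irregular probes reduced the Sertoli list from 2 detected genes to 1, and the cause of the other shifts was not tested. The array background limits every statement on genes near a level of 5.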

Other observations

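The lists of Sertoli cell genes and smooth muscle genes were not described in full above. Of 10 measured Sertoli genes 2 were detected in FGSC (20%), beside 39.6% of all genes. They were the defining genes Sox9 at 6.00 ± 0.05 (SD, n = 3) and Cldn11 at 5.40 ± 0.97, the latter on an irregular probe. Of 10 smooth muscle genes 4 were detected (40%), beside 39.6% of all genes, and 6 without replicate 3. The 4 were the tropomyosin Tpm1 at 7.53 ± 0.31, the actin Acta2 at 6.60 ± 0.19, the kinase Mylk at 6.29 ± 0.04 and the myosin Myh11 at 6.25 ± 0.11. Acta2 and Myh11 are the defining genes of that list. Mylk stood at 11.23 in SSC.

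Among genes of cell death, Casp2, a caspase of oocyte death, stood at 9.92 ± 0.13 and the DNA damage kinase Atm at 9.35 ± 0.17. Bcl2l10, a Bcl2 relative of the oocyte, read 7.88, 7.72 and 7.77 and was detected on no SSC array, and Bbc3, the mediator of oocyte loss also called Puma, stood at 7.60 ± 0.07. Of 18 measured genes of this list 13 were detected. Among receptors, Tgfbr1 stood at 10.35 ± 0.05, Acvr2b at 9.66 ± 0.08, Igf1r at 9.34 ± 0.14 and Insr at 8.52 ± 0.19, while Pgr was not detected. A further 1607 probes detected on all 3 FGSC arrays had no single gene name here and were not used.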
